A study of Homo sapiens with 12 samples.

Results

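Oxamate-treated resistant MIAPaCa2 cells were compared with oxamate-treated parental MIAPaCa2 cells by ATAC-seq, which maps open chromatin with a transposase. The comparison used 6 of the 12 libraries of the series, 3 of each kind of cell. The peaks of these 6 lists were merged wherever they overlapped by at least 1 bp, which gave 123162 regions on chromosomes 1 to 22 and X. A region was counted as gained when 3 of 3 resistant lists and 0 of 3 parental lists held a peak in it, and as lost in the reverse case. By this rule 2533 regions were gained, 2.06% of all merged regions, and 779 regions were lost, 0.633% of all merged regions. The rule itself sets these calls, so the counts describe the lists and carry no test. Gained regions lay in gene bodies in 51.7% of cases, near the 48.8% of all merged regions, with up to 5 in a single gene (NEDD4L, KCNMA1 and CAMTA1), whereas 60.5% of lost regions lay more than 100 kb from any gene end, against 7.92% of all merged regions.

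MIAPaCa2 is an established line from a human pancreatic ductal adenocarcinoma, a tumour that relies heavily on glycolysis. Lactate dehydrogenase turns pyruvate into lactate and restores the NAD+ that glycolysis consumes, and oxamate, an analog of pyruvate, competes with pyruvate for this enzyme. In ATAC-seq the Tn5 transposase cuts DNA that is not packed into nucleosomes, so peaks mark open promoters, enhancers and other accessible sites. Promoters of genes that every cell uses are open in most conditions, while sites inside and between genes vary more from one cell state to another.

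The parental cells had not been selected, and the resistant cells were a polyclonal population that grew out of the same line in continuous culture with oxamate, so several clones can be mixed in each resistant library. All 6 libraries came from cells given oxamate before 250000 nuclei were taken for each library, and the labels name no genetic change in either population. The other 6 libraries came from the same populations without oxamate. They were used here to see whether regions found under oxamate were also open without it. One of them, untreated resistant library 1, also set the smallest width of 124 bp used in a repeat. The labels number 3 replicates in each group without saying that they were separate cultures, so the p-values given here measure the spread between these libraries, which may be technical.

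The 6 treated lists held 45748 to 62414 peaks, and their read totals are unknown, since the lists give none. Relative depth, estimated from the enrichment and p-value of the commonest peak of each list and set to 1 in the shallowest library, was 1.00 to 1.13 in treated resistant and 1.66 to 2.77 in treated parental libraries. The smallest peak was 94 to 112 bp wide in resistant lists and 67 to 81 bp in parental lists. Neither measure overlapped between the groups (exact permutation p = 0.1 for each, the smallest that 3 against 3 libraries allow), and their part in the results was not tested. Of the markers chosen for a pancreatic cancer line, KRT8, KRT18 and VIM had a peak at an end in 6 of 6 libraries. KRT19 had one in 3 of 3 resistant and 1 of 3 parental libraries. Epithelial genes as a set were not open throughout. Of 14 genes of epithelial adhesion and keratins, 6 had a region called in 6 of 6 at an end, against 11234 of 19974 coding genes. CDKN2A and MTAP, which are deleted in this line, held no peak in any of the 6 lists, nor did the blood gene CD3E, the fibroblast gene DCN or the insulin gene INS. Of the other 5 markers of blood, endothelium, fibroblasts, islets and acini, COL1A1 had a peak at an end in 6 of 6 libraries, PECAM1 and CDH5 inside the span only in 6 of 6, and PTPRC and PRSS1 in 1 parental library each.

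A gene end here is either end of a gene's annotated span (RefSeq, GRCh38.p14, 59098 genes), and a region within 1 kb of one was called a gene-end region. Among the 34961 start sites listed with promoter sequence by RefSeq, 189 promoters of 170 genes had a gained region within the 250 bases before the start, and 2 promoters had a lost one. The sequences of 4 of these promoters are given because their genes differ in what the untreated cells showed. The window of CLDN4, a claudin of epithelial tight junctions, is at chr7:73830746-73830995 on the plus strand, and that of PGLYRP2, a peptidoglycan amidase, is at chr19:15479502-15479751 on the minus strand. The window of SYN2, a synapsin of synaptic vesicles, is at chr3:12004138-12004387 on the plus strand, and that of GLUL, which encodes glutamine synthetase, is at chr1:182391791-182392040 on the minus strand. Each is written from 5′ to 3′ as the 250 bases just before the start, and capitals mark matches on either strand to TGANTCA (the AP-1 motif), TGACGTCA (the cyclic AMP response element), CCAAT (bound by NF-Y), GGGCGG (the GC box), TATAAA (the TATA box) or CACGTG (the E-box).
CLDN4: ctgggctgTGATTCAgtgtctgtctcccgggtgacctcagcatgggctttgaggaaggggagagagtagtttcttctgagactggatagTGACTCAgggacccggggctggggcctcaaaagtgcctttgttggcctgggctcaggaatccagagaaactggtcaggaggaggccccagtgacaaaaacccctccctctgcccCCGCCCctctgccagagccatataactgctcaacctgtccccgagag
PGLYRP2: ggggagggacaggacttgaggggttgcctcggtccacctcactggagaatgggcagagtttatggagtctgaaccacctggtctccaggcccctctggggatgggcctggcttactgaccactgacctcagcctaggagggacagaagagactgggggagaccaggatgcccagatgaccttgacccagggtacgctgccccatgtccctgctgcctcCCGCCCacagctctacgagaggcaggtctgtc
SYN2: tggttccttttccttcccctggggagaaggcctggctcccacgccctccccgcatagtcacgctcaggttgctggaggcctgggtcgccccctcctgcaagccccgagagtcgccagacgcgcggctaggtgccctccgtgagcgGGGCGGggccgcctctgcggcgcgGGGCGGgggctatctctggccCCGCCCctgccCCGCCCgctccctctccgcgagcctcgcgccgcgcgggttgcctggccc
GLUL: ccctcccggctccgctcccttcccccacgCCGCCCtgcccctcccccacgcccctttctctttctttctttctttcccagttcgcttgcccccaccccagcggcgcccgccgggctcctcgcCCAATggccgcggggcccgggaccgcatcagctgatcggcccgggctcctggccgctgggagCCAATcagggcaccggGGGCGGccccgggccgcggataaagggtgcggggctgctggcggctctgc

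The gained region covered 111 of the 250 bases shown for CLDN4, 250 of those for PGLYRP2 and SYN2, and 69 of those for GLUL. CLDN4 held 2 matches to TGANTCA, both outside its gained region, 1 match to GGGCGG inside it, and 4 CG dinucleotides. Its region had a peak in 3 of 3 untreated resistant and 0 of 3 untreated parental libraries. PGLYRP2 held 1 match to GGGCGG and 4 CG dinucleotides, and its region had a peak in 3 of 3 untreated resistant and 1 of 3 untreated parental libraries. SYN2 and GLUL, with 27 and 25 CG dinucleotides, held 4 and 2 matches to GGGCGG and no TGANTCA, and both regions had a peak in 6 of 6 untreated libraries. In GLUL 1 of the 2 matches to GGGCGG lay outside the gained region. Over the 189 promoters with a gained region, 9.52% held TGANTCA, beside 6.54% of all 34961 promoters and 3.79% of the 13921 promoters with a region called in 6 of 6 treated libraries. The corresponding shares were 54.0%, 42.7% and 70.4% for GGGCGG, 23.3%, 32.0% and 33.9% for CCAAT, and 5.82%, 10.7% and 4.11% for TATAAA. They were 5.82%, 6.35% and 8.70% for CACGTG and 1.06%, 1.65% and 3.07% for TGACGTCA. Median GC content was 61.2% in promoters with a gained region, 58.4% in all promoters and 66.4% in promoters open in 6 of 6 libraries. A match of letters is only a description of the sequence, and the promoters were counted without a test.

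Most merged regions were found in few libraries. Of the 123162 regions, 44247 were called in a single parental library alone and 24793 in a single resistant library alone, while 24986 were called in 6 of 6. Just outside the rule for gained regions, 3526 regions had a peak in 3 resistant and 1 parental list, and 5071 in 2 resistant and 0 parental lists. Just outside the rule for lost regions, 683 had a peak in 1 resistant and 3 parental lists, and 2340 in 0 resistant and 2 parental lists. Of these neighbours, 21.0% and 14.6% of the former pair and 7.03% and 8.68% of the latter lay at gene ends, and 28.0%, 28.5%, 71.3% and 60.4% were intergenic in the same order. The count of gained regions depended on which libraries were required, at 5826 without resistant treated replicate 2, which had the shortest of the resistant lists, and 4439 without parental treated replicate 2, which had the longest of the parental lists. The count of lost regions was 2086 without parental treated replicate 1 and 1426 without parental treated replicate 3.

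**Figure D1:**
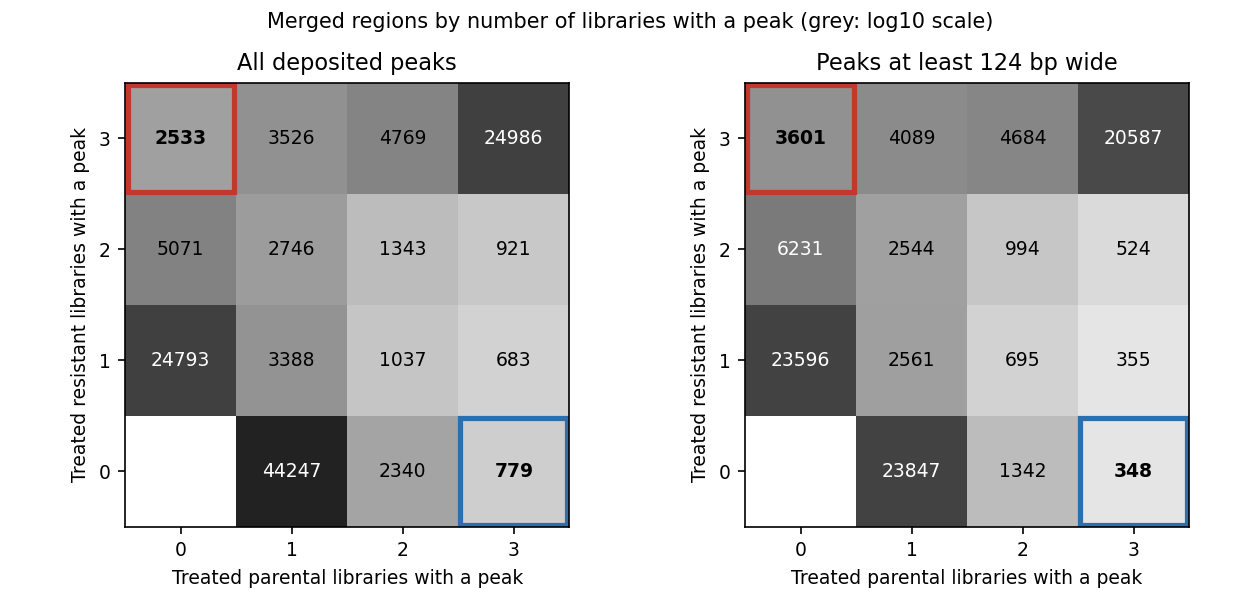
Merged regions by the number of treated resistant libraries (vertical axis) and treated parental libraries (horizontal axis) with a peak in them, for all deposited peaks (left) and for peaks at least 124 bp wide (right); darker grey means more regions on a log10 scale. Gained regions (red frame) number 2533 and 3601, and lost regions (blue frame) number 779 and 348.

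Gained regions were modest in strength. The fold enrichment that the peak caller gave over its background, taken for the best peak in each region, had a median of 4.04, 3.88 and 4.11 in resistant libraries 1 to 3. Regions called in 6 of 6 had medians of 6.37, 5.94 and 6.40 in the same libraries and 5.02, 5.00 and 4.59 in parental libraries 1 to 3. Lost regions had medians of 3.74, 3.61 and 3.58 in the parental libraries. Gained regions had a median width of 439 bp, lost regions 263 bp and regions called in 6 of 6 813 bp. A parental peak lay within 500 bp of 3.91% of gained regions and within 5 kb of 39.4%, and a resistant peak lay within 500 bp of 8.73% of lost regions and within 5 kb of 61.2%.

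The next question was whether gained and lost regions lay at gene ends, in gene bodies or between genes. Of the 2533 gained regions, 1309 lay in gene bodies (51.7%, exact 95% interval 49.7 to 53.6%), 754 were intergenic (29.8%, 28.0 to 31.6%) and 470 lay at gene ends (18.6%, 17.1 to 20.1%). Of the 779 lost regions, 584 were intergenic (74.97%, 71.8 to 78.0%), 149 lay in gene bodies (19.1%, 16.4 to 22.1%) and 46 at gene ends (5.91%, 4.36 to 7.80%). Regions called in 6 of 6 were instead at gene ends in 49.7% of cases (49.1 to 50.3%), and over all merged regions the shares were 19.2% at gene ends, 48.8% in gene bodies and 32.0% intergenic. With all peaks the shares of gained regions were close to those of all merged regions, and those of lost regions were not. At a -log10 q of at least 3, gained regions lay at gene ends in 27.4% and in gene bodies in 46.0% of cases. All merged regions at that limit had 33.6% and 38.6%. The intervals cover counting error only, and neighbouring regions are not independent.

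**Figure D2:**
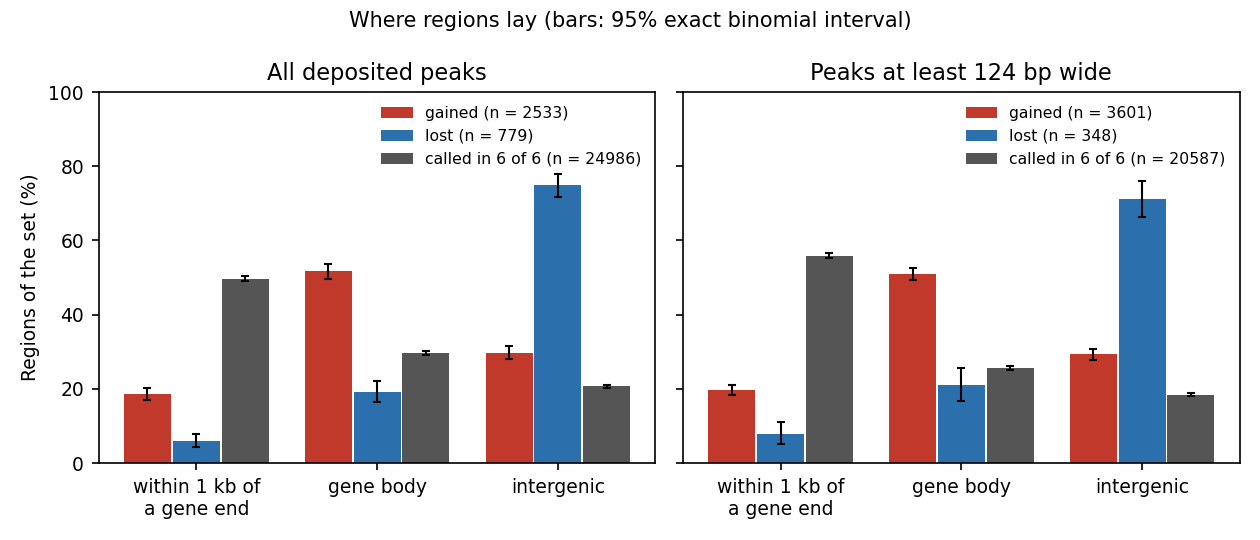
Share of gained regions (red), lost regions (blue) and regions called in 6 of 6 treated libraries (grey) within 1 kb of a gene end, in gene bodies and between genes, in percent with exact 95% binomial intervals, for all peaks (left) and peaks at least 124 bp wide (right). Gained regions were highest in gene bodies (51.7% and 50.9%) and lost regions highest between genes (74.97% and 71.3%) in both panels.

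Gene-end regions were then set against the listed start sites. Of the 470 gained gene-end regions, 200 (42.6%, exact 95% interval 38.0 to 47.2%) lay within 1 kb of a listed start site, against 71.4% (70.6 to 72.2%) of the gene-end regions called in 6 of 6, 52.3% of those among all merged regions and 9 of 46 (19.6%, 9.36 to 33.9%) of the lost ones. At a -log10 q of at least 3 the share was 55.2% (650 of 1178) for gained regions. At that limit it was 75.6% for regions called in 6 of 6 and 64.7% for all merged regions. The listed start sites belong to 27195 genes, whereas gene ends were taken from 59098 genes of every type. They cover 15812 of 19974 coding genes, so the shares are lower bounds. The median distance to the nearest gene end was 7537 bp for gained regions, 1043 bp for regions called in 6 of 6 and 393823 bp for lost regions. Only 59 gained regions (2.33%) were more than 100 kb from a gene end, compared with 471 lost regions (60.5%). Within gene bodies the medians were close, at 10311 bp for gained and 9001 bp for lost regions.

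**Figure D3:**
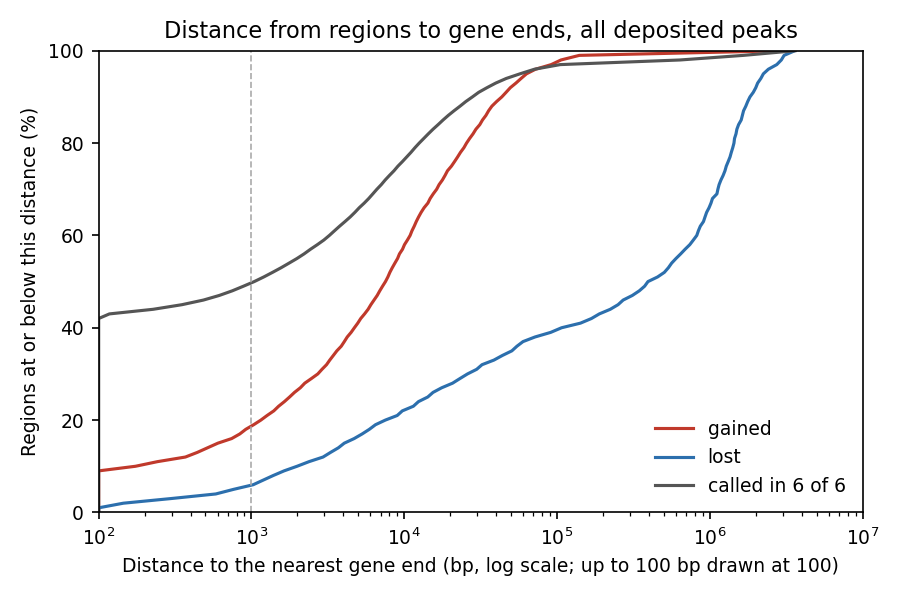
Cumulative share of regions (vertical axis, percent) by distance to the nearest gene end (horizontal axis, bp, log scale) for gained regions (red), lost regions (blue) and regions called in 6 of 6 (grey); the dashed line marks 1 kb. Gained regions have a median of 7537 bp and lost regions a median of 393823 bp.

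The comparison was repeated after every peak narrower than 124 bp was dropped. That was the smallest width in the list whose smallest peak was widest, among all 12 lists, so that every list could hold every peak kept. The number of merged regions fell to 95998, of which 3601 were gained (3.75%) and 348 lost (0.363%). The repeat therefore raised gained regions and lowered lost regions. Of the original gained regions 1903 (75.1%) remained, and they made up 52.8% of the gained regions of the repeat. The other 1698 gained regions of the repeat overlapped a parental peak narrower than 124 bp when every peak was used. Of the original lost regions 275 (35.3%) remained, which was 79.0% of those in the repeat, and in 504 of the original 779 (64.7%) the best peak of a parental list was narrower than 124 bp. Locations changed little, with 50.9% of gained regions in gene bodies, 29.4% intergenic and 19.7% at gene ends, and 71.3% of lost regions intergenic, 21.0% in gene bodies and 7.76% at gene ends.

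Genes with several gained regions were taken up next. Of 19974 coding genes, 1356 (6.79%) had at least 1 gained region in their span or within 1 kb of it, 136 had 2 or more, 27 had 3 or more, 6 had 4 or more and 3 had 5. For lost regions, 131 coding genes (0.656%) had at least 1, and 4 had 2 or more. Long genes held more: the median span was 71.0 kb for genes with a gained region and 349.0 kb for the 27 with 3 or more, against 24.2 kb for all coding genes. Gained regions made up 1.85 to 2.30 per 100 merged regions in each of 5 classes of gene length, from under 10 kb to over 300 kb, while the share of genes with a gained region rose from 2.17% in the shortest class to 23.1% in the longest. None of the 27 genes had a lost region, against 0.656% of all coding genes and 4.02% of those over 300 kb. With shares this low, the absence does not set the 27 apart. Another 27 coding genes had both a gained and a lost region.

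NEDD4L, a ubiquitin ligase known for removing the epithelial sodium channel from the cell surface, held 5 gained regions packed into 51.6 kb of its 357.3 kb. They were 5 of the 9 merged regions in that stretch, none of which was called in 6 of 6. The strongest, at chr18:58221232-58221755, held a listed internal start site of NEDD4L and had fold enrichments of 4.71, 5.71 and 5.86 in resistant libraries 1 to 3 under oxamate. It was also called in 3 of 3 untreated resistant libraries, at 6.04, 5.27 and 6.17, and in 1 of 3 untreated parental libraries, at 3.31. The region at chr18:58216118-58216590 had 3.96, 3.595 and 3.95 and was called in no untreated parental library. By contrast chr18:58231931-58232331, with 4.08, 3.67 and 3.77, was called in all 6 untreated libraries. With peaks at least 124 bp wide NEDD4L had 6 gained regions.

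KCNMA1, the pore subunit of the large-conductance calcium-activated potassium channel, and CAMTA1, a calmodulin-binding transcription activator, also held 5 each but over long stretches of 362.7 kb and 458.9 kb. The widest in KCNMA1, chr10:77376964-77378375, spanned 1412 bp, lay 351 bp from the end of the antisense gene KCNMA1-AS3 and had fold enrichments of 3.67, 3.85 and 4.11. It was called in 3 of 3 untreated resistant and 0 of 3 untreated parental libraries. Another, chr10:77582723-77583213, had 4.96, 3.56 and 5.58 and was called in 3 untreated resistant and 2 untreated parental libraries. In CAMTA1 the region chr1:7356132-7356349 had 3.64, 3.39 and 4.62 and was called in none of the 6 untreated libraries, whereas chr1:7680275-7680869 and chr1:7752609-7753085 were called in all 6. In the repeat with wider peaks KCNMA1 held 6 gained regions and CAMTA1 held 7.

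CPVL, a serine carboxypeptidase, held 4 gained regions among 19 merged regions and none called in 6 of 6. Its region chr7:29035223-29035866 had fold enrichments of 7.59, 5.49 and 6.92 and chr7:29106174-29106657 had 7.32, 6.60 and 5.71, which were higher than the medians of gained regions in every library. The 3 untreated resistant libraries gave 7.26, 6.51 and 6.99 for the former. Untreated parental libraries 1 and 3 gave 3.25 and 3.58 there, and replicate 2 had no peak. A further region, chr7:29189814-29190105, held a listed start site of CPVL and had 6.76, 3.99 and 6.03. Only 2 of the 4 remained gained with wider peaks.

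RASAL2, a GTPase-activating protein for Ras, held 4 gained regions, 3 of which were called in no untreated parental library. One of them, chr1:178127673-178128078, was found in no untreated library at all and had fold enrichments of 4.60, 5.48 and 3.88 in resistant libraries under oxamate. DST, a cytoskeletal linker of the plakin family, held 4, among them chr6:56808959-56809459 with 14.6, 4.61 and 12.7. That region was also found in none of the 9 other libraries, and resistant library 2 was well below the other two. The other regions of DST had 3.13 to 4.04 in the 3 libraries.

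**Figure D4:**
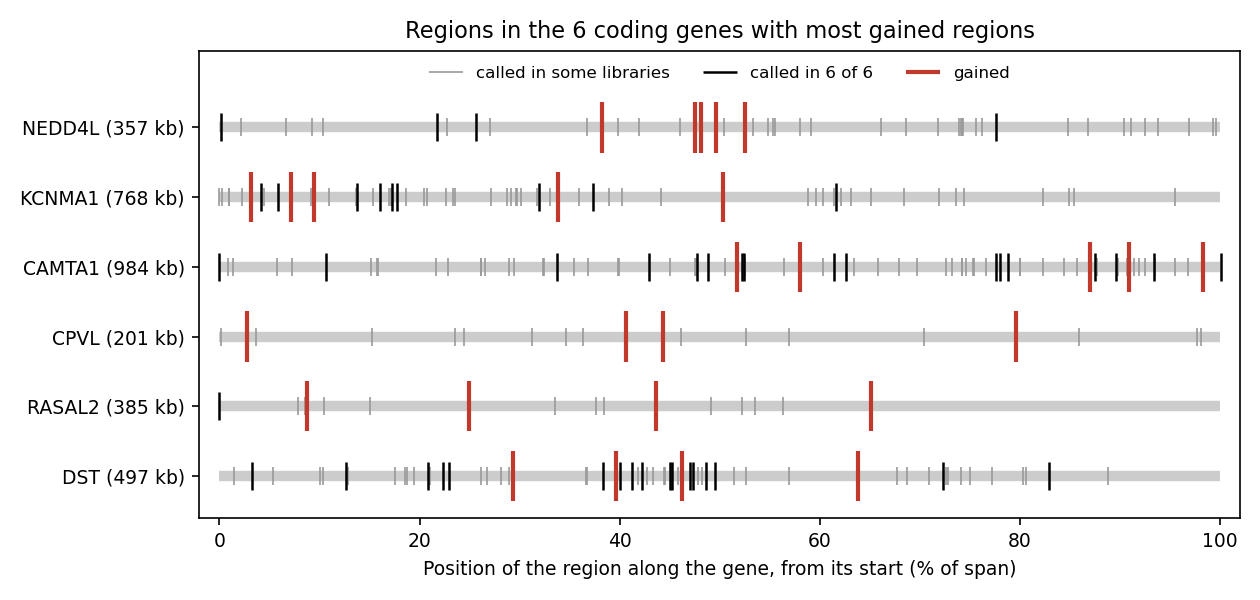
Merged regions along the 6 coding genes with most gained regions, from the gene start (0%) to the end (100% of the span given beside each name); red marks gained regions, black regions called in 6 of 6 treated libraries and grey all others. The 5 gained regions of NEDD4L fall within 51.6 kb, while those of CAMTA1 spread over 458.9 kb.

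Relative to length, among the 27 genes with 3 or more, YWHAZ, which encodes the adaptor protein 14-3-3 zeta, had most gained regions, 3 in 36.9 kb or 8.14 per 100 kb. All of its fold enrichments were low, from 2.47 to 3.23, and its regions were called in 2 or 3 of the untreated libraries of each kind. RAP1GAP, a GTPase-activating protein for Rap1, followed with 4.10 per 100 kb and TPD52L1, of the tumour protein D52 family, with 2.71. The 3 regions of TPD52L1 lay within 16.6 kb, had 3.51 to 4.81 under oxamate and were called in no untreated parental library, but in 3, 3 and 2 of the untreated resistant libraries. SUFU, an inhibitor of Hedgehog signalling, held 3 within 15.0 kb, where 5 merged regions lay in all, and all 3 were called in 3 untreated resistant and 1 to 3 untreated parental libraries. LARP1 and IGF2BP2, both RNA-binding proteins, EHMT1, a histone H3 lysine 9 methyltransferase, and HIVEP2, a zinc finger factor, had 3 each, or 1.38 to 2.23 per 100 kb. In the repeat LARP1, IGF2BP2 and HIVEP2 kept 1 gained region each.

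Across the 27 genes with 3 or more there were 90 gained regions, 77 in gene bodies and 13 at gene ends. They were counted for lying in a gene or within 1 kb of it, so none could be intergenic. Of these 90, 58 were called in 3 of 3 untreated resistant libraries, 22 in 0 of 3 untreated parental libraries, 27 in 3 of 3 untreated parental libraries and 11 in 3 of 3 untreated resistant and 0 of 3 untreated parental libraries. Over all 2533 gained regions the shares were 51.5%, 21.0%, 27.3% and 8.33% in the same order. With peaks at least 124 bp wide, 18 of the 27 kept 3 or more. The number of genes with 2 or more rose from 136 to 234 in the repeat, and 90 genes were in both sets, 66.2% of the former and 38.5% of the latter. At a -log10 q of at least 3, NEDD4L and CPVL held 2 gained regions each and SUFU and IGF2BP2 none, while KCNMA1 held 6 and CAMTA1 held 7.

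At coding gene ends, 327 genes (1.64%) had a gained region. The best-ranked by -log10 q lay at the end of SDHAF3, an assembly factor of succinate dehydrogenase, at chr7:97181573-97181952. Its fold enrichments were 18.0, 15.2 and 18.8 under oxamate and 19.6, 20.4 and 23.7 in the untreated resistant libraries, with no peak in any of the 6 parental libraries. The region downstream of CYP3A43, a cytochrome P450, at chr7:99866329-99866730 had the same pattern with 9.80, 7.42 and 7.77 under oxamate and 9.30, 7.06 and 8.93 without. The other 8 genes named by rank had lower values. SYN2 had 5.89, 6.35 and 4.67, and ARSJ, an arylsulfatase gene, had 6.57, 4.18 and 6.16. TLR3, a receptor for double-stranded RNA, had 6.38, 4.56 and 6.03 at 742 bp before its start, with a peak also in 3 untreated resistant and 2 untreated parental libraries. PGLYRP2, GDE1, a glycerophosphodiester phosphodiesterase, ZNF474, a zinc finger gene, DPPA3, known from germ cells and early embryos, and BRI3BP had 3.16 to 6.72, and each was called in 3 of 3 untreated resistant and 1 to 3 untreated parental libraries.

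A few gained regions were far stronger than the rest. In 15 of the 2533 (0.592%) the fold enrichment was at least 10 in each of the 3 resistant libraries, a level chosen after the values were seen. Their median width was 379 bp with quartiles of 366.5 and 380 bp, against quartiles of 310 and 633 bp over all gained regions. Of the 15, 7 lay in gene bodies, 6 between genes and 2 at gene ends, and 8 were called in 3 of 3 untreated resistant and 0 of 3 untreated parental libraries. The top ones were a 380 bp region in the body of CTNNB1, which encodes beta-catenin, at chr3:41231653-41232032 and another of 380 bp in GRM7-AS2, a non-coding gene, at chr3:7101591-7101970. The former had 33.2, 34.8 and 34.9 under oxamate and 30.5, 35.2 and 35.8 without, and the latter had 33.4, 34.2 and 33.3 under oxamate and 32.7, 35.1 and 36.9 without. Neither had a peak in any parental library. Intergenic ones near SLC44A3P1, a pseudogene, at chr2:193259788-193260166 and near LOC107985963 at chr2:176029557-176029936 had 23.5 to 28.8 under oxamate and no peak in any parental library. A region of 376 bp in ZSWIM2, at chr2:186841874-186842249, had 24.3, 19.7 and 20.9 and was also absent from all parental lists. Others were called in parental cells: the region in CNTNAP2, a neurexin-family adhesion gene, at chr7:146118368-146118714 had 18.8, 19.99 and 21.5 in treated resistant libraries, and 22.97 and 26.7 in untreated parental libraries 1 and 2. The region near CDH19, a cadherin gene, and the one in DDX10P1, a pseudogene, were likewise called in 3 of 3 untreated resistant and 2 of 3 untreated parental libraries. The intergenic region nearest RNU6-75P, a pseudogene, had 13.1 to 16.3 under oxamate and was called in untreated resistant library 2 and untreated parental library 1, and the one nearest LINC02512, a non-coding gene, had 14.4 to 24.4 and was called in untreated resistant library 1 alone.

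Lost regions gathered in a few windows, most of them where the assembly places centromeres. Windows of 1 Mb with at least 10 lost regions numbered 17 and held 397 of the 779 (51.0%). They held 4394 merged regions, of which 9.04% were lost, against 0.633% over all. Of the same 4394 regions 3 were gained, against 2.06% over all. The windows were picked by their lost count, so these shares carry no test. The richest were chr13:17000001-18000000 with 62 and chr1:123000001-124000000 with 54. Chromosome 13 as a whole had the highest share, with 4.38% of its merged regions lost. Outside the 17 windows 382 lost regions were left, of which 50.8% were intergenic, 38.7% in gene bodies and 10.5% at gene ends. Peaks more than 100 kb from a gene end made up 3.16 to 4.47% of the resistant lists and 7.92 to 9.18% of the parental lists (exact permutation p = 0.1). In all, 1957 ± 227 (SD, n = 3) such peaks were in resistant and 4802 ± 1078 (SD, n = 3) in parental lists. Leaving such regions out gave 308 lost and 2474 gained regions.

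Among lost regions 23 (2.95%) had a fold enrichment of at least 10 in each of the 3 parental libraries. None was at a gene end, their median width was 93 bp, and 12 of them were narrower than 94 bp, the smallest peak in any treated resistant list. Of all 779, 71 were narrower than 112 bp, the largest of the smallest widths in those lists. The best-ranked in gene bodies were 92 bp in NKAIN2, at chr6:124039778-124039869, with 43.6, 43.0 and 38.4 in parental libraries under oxamate, and 93 bp in MOK, a protein kinase gene, at chr14:102298354-102298446, with 47.3, 43.1 and 38.7. Both were called in 3 of 3 untreated parental and 0 of 3 untreated resistant libraries, and neither remained once peaks had to be 124 bp wide. A wider one, 263 bp in LOC124907906 at chr2:174227583-174227845, did remain, with 24.2, 20.4 and 21.1 under oxamate and 26.5, 29.2 and 25.5 in untreated parental libraries. RFX3, which encodes a transcription factor of ciliated cells, held one of 85 bp with 27.8 to 29.3, and LOC105374862 one of 342 bp with 5.06 to 6.41 that was called in 3 of 3 untreated resistant libraries. NKAIN2, MOK and RFX3 each also held 1 gained region. The best-ranked lost regions between genes, nearest LOC105374810, IGHV1OR21-1, LOC102724523, LINC02224 and ABCD1P2, were 81 to 142 bp wide with 10.7 to 46.7.

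Genes with lost regions were few. PTPRN2, a receptor-type phosphatase family gene of secretory granules, had 4 in 1049 kb with fold enrichments of 3.11 to 3.74, beside 1 gained region. With wider peaks it held 1 lost region and at a -log10 q of at least 3 none. PIWIL1, which acts in the piRNA pathway, C1QTNF3, a secreted C1q family protein, and GSE1 had 2 each, and GSE1 also held 2 gained regions. ACTL10, of the actin family, completed the 5 genes with 1 lost region at 3.05 to 3.81. The best-ranked lost region at a coding gene end, chr17:82238592-82239535, spanned 944 bp where the ends of CSNK1D, which encodes casein kinase 1 delta, and SLC16A3 overlap. It had 3.96, 3.28 and 2.66 in parental libraries under oxamate, and was called in 3 of 3 untreated parental and 1 of 3 untreated resistant libraries. CSNK1D also held 1 gained region. GRB7, an adaptor of receptor tyrosine kinases, had a lost region of 234 bp over its end with 3.58, 3.06 and 3.15, which was called in 3 of 3 untreated parental and 0 of 3 untreated resistant libraries. SLC67A1, VCX3B and LOC124905441 completed the 5 best-ranked, at 3.38 to 4.36.

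Genes of the pathway that oxamate blocks were examined by lists. Over all coding genes 6.79% had a gained and 0.656% a lost region, so few are awaited in any short list. Of the 6 lactate dehydrogenase genes none had a gained or a lost region, which at these shares does not set them apart. LDHA, the main target of oxamate, had a peak at an end in all 12 libraries, as did LDHC, which neighbours it, and LDHD, a D-lactate dehydrogenase. LDHB had one in 1 treated parental library only, and LDHAL6A and LDHAL6B had none. Of the 7 genes of lactate transport, EMB, which encodes the transporter chaperone embigin, had 1 gained region. SLC16A3, the lactate exporter MCT4, had the lost one described above. At a -log10 q of at least 3 that region was not called lost, and SLC16A3 held 2 gained regions at other sites. The region of EMB, chr5:50440759-50441619, had fold enrichments of 3.53, 3.84 and 3.93 in resistant libraries under oxamate, 3.30, 3.87 and 3.71 in untreated resistant libraries, and no peak in any parental library.

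Of 21 genes of glycolysis and glucose import, SLC2A3, the glucose transporter GLUT3, and PGK1, phosphoglycerate kinase, had a gained region and PFKP, the platelet phosphofructokinase, had a lost one of 111 bp. Of 30 genes of pyruvate entry and the citric acid cycle, PDHX, a subunit of the pyruvate dehydrogenase complex, and OGDH, of the oxoglutarate dehydrogenase complex, had 1 gained region each. That of OGDH, chr7:44693796-44694305, had 3.11, 3.48 and 3.57 and was called in no untreated library. GOT1, the cytosolic aspartate aminotransferase, had a gained region and SLC25A12, the mitochondrial aspartate-glutamate carrier, a lost one, among 10 genes of the shuttles that carry reducing power into mitochondria. GLUL and SLC1A5, a glutamine transporter, had gained regions among 13 genes of glutamine and aspartate metabolism. That of GLUL, chr1:182391318-182391859, lay over its start with 3.64, 3.16 and 4.45, and was called in all 6 untreated libraries at 3.25 to 4.21. The 14 genes of serine and one-carbon metabolism had neither, which does not set them apart where 6.79% of all coding genes had a gained region. TKT, transketolase, was the one with a gained region among 12 genes of the pentose phosphate pathway and NADPH.

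The remaining lists covered lipid synthesis, transcription and cell identity. Genes with a gained region included ACACA, acetyl-CoA carboxylase, and SREBF1, a sterol-responsive factor, among 20 genes of fatty acid and sterol synthesis. MLXIPL, a glucose-sensing factor, was 1 of 16 genes of the hypoxia and MYC network, KEAP1, the inhibitor of NRF2, 1 of 14 genes of the antioxidant response, and MAFK, a small MAF protein, 1 of 14 genes of AP-1 factors. MAFK held 2 gained regions within 1 kb of the end of an overlapping non-coding gene, with 2.34 to 3.43. TGFBR2, the type II receptor of transforming growth factor beta, had a gained region at its start, chr3:30606405-30606726, with 5.27, 6.51 and 5.57 under oxamate and 5.29, 3.53 and 6.41 in untreated resistant libraries, and no peak in any parental library. SMAD3, a transducer of that receptor's signal, had one in its body, and VIM, which encodes vimentin, a lost one of 213 bp at 3.57, 2.75 and 3.30 that was found in no untreated library.

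Of 14 genes of epithelial adhesion and keratins, EPCAM, CLDN4 and KRT8 had gained regions and TJP1, a scaffold of tight junctions, a lost one. CLDN4 had 2.54, 3.16 and 3.11 over its start under oxamate, 2.41, 2.86 and 2.59 in untreated resistant libraries and no peak in any parental library. Of 19 Wnt pathway genes, CTNNB1 and AXIN1, of the beta-catenin destruction complex, had 1 each and LRP5, a Wnt co-receptor, had 2, of which chr11:68312593-68314121 spanned 1529 bp. ERBB4, IGF1R and ROR2 had 1 each among 20 receptor tyrosine kinases, and ABCB4 and ABCC3 among 10 ABC transporters. Over all lists, 28 of 256 genes (10.9%) had a gained region, against 6.79% of all coding genes, while the listed genes were also longer, with a median of 39.9 kb against 24.2 kb. Genes with a lost region numbered 5 of 256, against 0.656% of all coding genes. With wider peaks SLC16A3 and VIM still held a lost region, and PFKP, SLC25A12 and TJP1 held none. TJP1 then held a gained region, at another site of the gene. At a -log10 q of at least 3, EMB, GLUL and OGDH held no gained region, while TGFBR2, CLDN4 and CTNNB1 held 1 each. At that limit none of the 5 genes with a lost region held one, while SLC16A3 held 2 gained regions and PFKP and SLC25A12 held 1 each. These gained regions were other sites of the same genes, so no lost region changed direction. Listed genes with a single gained region away from an end were named after their values were seen.

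The untreated libraries, which the rule did not use, showed how far the calls held without oxamate. Gained regions were called in 83.9%, 65.8% and 76.7% of cases in untreated resistant libraries 1 to 3 and in 54.4%, 63.0% and 44.4% in untreated parental libraries 1 to 3. The groups did not overlap, and the means were 75.5 ± 9.13% and 53.9 ± 9.30% (SD, n = 3 each). At a -log10 q of at least 3 the groups did overlap, with 70.4% in untreated resistant library 2 and 74.6% in untreated parental library 2. Lost regions were called in 21.4%, 42.1% and 12.7% of cases in untreated resistant libraries and in 48.4%, 33.8% and 65.6% in untreated parental libraries, where the groups overlapped. Regions called in 6 of 6 treated libraries were found in 99.1 to 99.7% of cases in every untreated library. Untreated resistant replicate 2 had the lowest value for gained and the highest for lost regions among the resistant libraries, and its relative depth was 1.85 against 1.42 and 1.01 for the others. The part of depth in these shares was not tested.

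**Figure D5:**
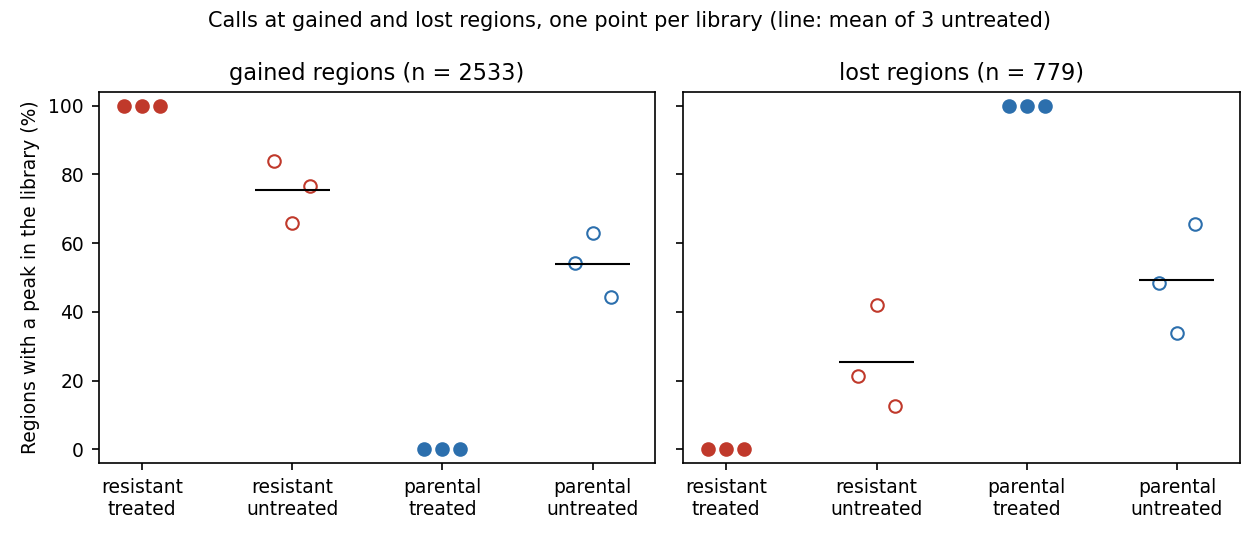
Share of the 2533 gained regions (left) and 779 lost regions (right) with a peak in each of the 12 libraries (vertical axis, percent); each point is a library, filled for treated and open for untreated cells, and lines mark the means of the 3 untreated libraries. Treated libraries stand at 100% or 0% by the rule, and untreated resistant libraries stand at 65.8 to 83.9% for gained regions, above the untreated parental ones at 44.4 to 63.0%.

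Gained regions thus differed in how many untreated libraries called them, and every combination of counts was found. Of the 2533, 467 (18.4%) were called in all 6 untreated libraries and 211 (8.33%) in 3 of 3 untreated resistant and 0 of 3 untreated parental libraries. A further 56 (2.21%) were called in no untreated library. In all 1404 (55.4%) had a peak in at least 2 untreated parental libraries, among them 61.1% (exact 95% interval 56.5 to 65.5%) of gained regions at gene ends and 51.3% (47.7 to 54.9%) of intergenic ones. Of the lost regions, 13 (1.67%) were called in all 6 untreated libraries, 45 (5.78%) in 3 of 3 untreated parental and 0 of 3 untreated resistant libraries, and 97 (12.5%) in none. With peaks at least 124 bp wide, gained regions were called in 79.8 ± 11.7% of cases in untreated resistant and 54.5 ± 12.5% in untreated parental libraries (SD, n = 3 each).

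Gained regions were found on all 23 chromosomes examined. Their share of the merged regions was highest on chromosome 4 (118 of 2820, 4.18%, exact 95% interval 3.48 to 4.99%) and X (88 of 2913, 3.02%, 2.43 to 3.71%). It was lowest on chromosome 14 (43 of 3638, 1.18%, 0.857 to 1.59%) and 7 (133 of 10006, 1.33%, 1.11 to 1.57%), against 2.06% over all. In the repeat with wider peaks chromosome 4 again had the highest share, 5.65%, and chromosome 7 the lowest, 2.36%. No 1 Mb window held more than 9 gained regions. Copy number was not measured, and its part in these shares was not tested.

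The per-library measures of the whole lists were tested last. Treated resistant lists held 53340 ± 5438 peaks and treated parental lists 54432 ± 8355 (SD, n = 3 each), a difference of -1092 (exact permutation p = 0.9, adjusted p = 0.9 over 6 measures), which was smaller than the spread. Its direction turned to 9630 more in resistant lists with peaks at least 124 bp wide (exact permutation p = 0.3) and to 1737 and 2899 more without resistant treated replicate 2 or parental treated replicate 2. Resistant peaks were wider, with medians of 356 ± 33.7 bp against 214 ± 12.9 bp, and covered 26.6 ± 4.77 Mb against 17.2 ± 2.97 Mb (SD, n = 3 each). Neither measure overlapped between the groups (exact permutation p = 0.1 and adjusted p = 0.2 for each). Intergenic peaks made up 25.3 ± 0.418% of resistant and 30.02 ± 1.83% of parental lists, which did not overlap either (exact permutation p = 0.1, adjusted p = 0.2). The groups did overlap in this share with peaks at least 124 bp wide, at a difference of -2.48 points (exact permutation p = 0.4), and at a -log10 q of at least 3, at -1.25 points (exact permutation p = 0.3). Shares in gene bodies, 42.6 ± 2.23% and 39.2 ± 1.75%, and at gene ends, 32.0 ± 2.26% and 30.8 ± 3.51%, did overlap (exact permutation p = 0.2 and 0.6, adjusted p = 0.3 and 0.72). The gene-body share no longer overlapped in those settings, at differences of 6.07 and 7.79 points (exact permutation p = 0.1 for each). With 3 libraries against 3, an exact permutation test cannot go below p = 0.1, and the kind of cell, the depth and the smallest width cannot be told apart in these totals.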

How the data were processed

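ATAC-seq peak lists of 12 MIAPaCa2 libraries were used, 3 each of parental and resistant cells with and without oxamate. The authors aligned paired reads to hg38 with Bowtie2 2.1.0, removed mitochondrial, duplicate and non-uniquely mapped reads and called broad peaks per library with MACS2. Its version, any control and any blacklist are not given in the sources used here. The deposited columns hold, in broadPeak order, peak coordinates, a whole-number score, the fold enrichment over the caller's background, and the -log10 p and -log10 q values, all as the authors' peak caller wrote them. The smallest -log10 q in the 6 treated lists was 1.00. Since no read counts were used, only calls and per-list measures were compared.

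From the lists, regions, gained and lost calls, their places and the genes with them were computed in Python 3.11.15 with numpy 2.4.6, pandas 2.3.3 and scipy 1.17.1, and figures were drawn with matplotlib 3.10.9. A region counted for a gene when it lay in the gene's span or within 1 kb of it, and gene spans, start sites and promoter sequences came from RefSeq for GRCh38.p14. Gene bodies are spans more than 1 kb from any gene end, and no exon or intron was assigned. Per-library measures were tested by two-sided exact permutation over 20 assignments, with Benjamini-Hochberg adjustment over 6 measures. Shares have exact binomial (Clopper-Pearson) 95% intervals that cover counting error only. Planted gained and lost regions were recovered in simulated lists. Relative depth was estimated from the fold and p of each list's commonest peak. Peaks outside chromosomes 1 to 22 and X were left out.

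Genes named were the 12 with most gained regions, the 10 with most per 100 kb among those with 3 or more, the 10 best-ranked gained and 5 best-ranked lost by -log10 q at gene ends, the 5 best-ranked of each kind in bodies and between genes, the 5 with most lost regions, and list members with 2 or more gained, any lost or a gained end region. The members and lists were chosen with earlier results of these data known. Alternatives were a stricter q, a smallest width, 50% cover, other gene-end limits and each library left out. A few members of the gene and marker lists are not reported here by name.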

Additional observations from a re-analysis of the deposited data

Results flagged for a closer look

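Peaks outside chromosomes 1 to 22 and X, on unplaced sequences and other contigs, were not part of the comparison but were found in every list. Treated resistant libraries 1 to 3 held 339, 417 and 292 of them, and treated parental libraries 1 to 3 held 653, 845 and 745, so that the groups did not overlap. The means were 349 ± 63.1 and 748 ± 96.03 (SD, n = 3 each, two-sided exact permutation p = 0.1, the smallest that 3 against 3 allow). The untreated libraries held 315 to 599. These peaks were counted only, and the part of depth or copy number in them was not tested.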

How the results depend on the processing

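Among the values that answer a comparison, 83 of those recomputed were classed as the same, 22 as moved and 7 as reversed. A count classed as the same could still change, as gained regions did from 2533 to 3601 with peaks at least 124 bp wide. At a -log10 q of at least 3, gained regions numbered 4302 and lost regions 369, with 27.4% and 3.79% of them at gene ends. Of all merged regions at that limit 33.6% lay at gene ends. With peaks at least 124 bp wide there were 348 lost regions, and when peaks had to cover 50% of a region there were 5512 gained and 490 lost. Gene-end shares of gained and lost regions became 41.1% and 16.6% within 5 kb, and 11.7% and 1.80% with coding genes only. Without regions over 100 kb from a gene end, an alternative chosen after the data were seen, there were 308 lost regions, 14.9% of them at gene ends. Coding genes with 2 or more gained regions numbered 286 at the stricter q and 234 with wider peaks. The difference in peaks per library (resistant minus parental) reversed to 11783 and 9630 under these same alternatives, and that in gene-end share to -6.54 and -3.60 points.

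Leaving out each library in turn gave 3280 to 5826 gained and 909 to 2086 lost regions, with gene-end shares of 16.7 to 19.4% and 5.58 to 7.86%. Differences then ran from -5434 to 2899 peaks per library, positive without resistant treated replicate 2 (1737) and parental treated replicate 2 (2899). Gene-end share per library ran from -0.0804 to 3.26 points, negative only without parental treated replicate 2. The other 4 per-library measures kept their direction in these runs. The causes were not tested. Same-numbered treated libraries deviated together little, with correlations over 98176 regions of 0.0349, 0.0152 and -0.00407. Differently numbered ones had -0.0395 to 0.0192. Neither these values nor the labels can tell whether same-numbered libraries were prepared together. A replicate block left the differences as they were (-1092 peaks, 9.40 Mb) with exact sign-flip p of 0.75 and 0.25, the smallest possible being 0.25. Read totals are unknown, so a missing peak cannot be told apart from one too weak to be called at that depth.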
